A study of Mus musculus with 9 samples.

Results

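The genes examined here are 9 members of the colony-stimulating factor 1 receptor (CSF1R) axis and of macrophage lineage factors: the receptor Csf1r, its ligands Csf1 and Il34, the granulocyte-macrophage ligand Csf2 with its receptor chains Csf2ra and Csf2rb, the granulocyte receptor Csf3r, and the transcription factors Spi1 and Irf8. They were taken by symbol from the feature tables, 9 of the 30406 genes that all 9 libraries share, and all 9 were found. The libraries are 10x single-cell RNA-seq of mouse embryonic fibroblast (MEF) cultures on their way to induced neurons (iN), with 1 library from a WT, a Per1-/- and a Per2-/- culture on each of days 4, 7 and 10. The deletions are the targeted alleles Per1tm1Drw and Per2tm1Drw of the circadian clock genes Per1 and Per2. Every group, WT included, carried lentiviral neuron-inducing transcription factors under doxycycline control, and days were counted from the change to neuronal medium with doxycycline. The MEFs were low-passage cells from whole embryos without head and heart, embryos were pooled in a dish and their sex was not determined, so a culture holds several cell types from the start and the deletion is present in all of them.

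CSF1R is a receptor tyrosine kinase on macrophages and their precursors that needs either of its ligands, CSF1 (M-CSF) or IL34, for survival, division and differentiation of these cells. Mesenchymal cells such as fibroblasts are a known source of CSF1 in tissues, whereas IL34 is best known from epidermis and neurons. Spi1 encodes PU.1, a transcription factor that macrophages require and that binds the Csf1r gene, and Irf8 encodes a partner of PU.1 in the monocyte lineage. GM-CSF, the product of Csf2, signals through a specific alpha chain (Csf2ra) and a beta chain (Csf2rb) that IL3 and IL5 receptors share, while G-CSF acts through Csf3r, which neutrophils carry most abundantly.

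Each value below is a count of unique molecular identifiers (UMIs, one for each captured RNA molecule) summed over the cells of a class in a library, given per 1000000 UMIs of the same cells (CPM). After limits on UMIs and mitochondrial RNA and the removal of doublets, 73557 cells in 38 clusters were kept. The 9 members were kept out of the clustering, and 7 classes were named from other markers; 15 clusters stayed unnamed. All 19 macrophage markers reached 5 CPM in the macrophage-like class, where they summed to 23050 to 31645 CPM per library, against 30.8 to 142 CPM in the fibroblast-like class. In macrophage-like cells 17 of 20 fibroblast markers also reached 5 CPM, with a summed level of 368 to 902 CPM in 8 libraries and 4404 CPM in WT on day 10, against 23343 to 45710 CPM in fibroblast-like cells. None of 11 neutrophil markers reached 5 CPM in macrophage-like cells (summed level 0.571 to 4.17 CPM), and S100a9, Ly6g, Mpo and Retnlg were at 0. Library totals ran from 126625215 to 353198559 UMIs. WT day 10 stood apart, since 55.4% of its barcodes passed the limits against 86.1 to 94.5% in the others. Xist was at 0.068 and 0.060 CPM in Per1-/- on days 7 and 10 and at 346 to 993 CPM in the other 7 libraries, so the make-up of embryo sexes and the genotype cannot be told apart there. Per1-/- on day 4 was among the latter (489 CPM). Its difference from the later Per1-/- days cannot be told apart from the make-up of sexes either. At most 38 cell barcodes were shared by a pair of libraries, or 0.424% of the smaller one. Intervals in square brackets are exact 95% Poisson or binomial intervals and cover counting error only.

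Csf1r marked the macrophage-like cells. Pooled over libraries its level in them was 724 CPM [720 to 729] and 98.6% of the 5543 cells held at least 1 Csf1r UMI, or 84.2% when cells were thinned to 3000 UMIs. WT on day 10 stood apart here too: 81.1% of its 317 macrophage-like cells held a Csf1r UMI, 79.5% a Spi1 UMI and 70.7% an Irf8 UMI, whereas the share for Csf1r was 97.5 to 100% in the other 8 libraries. Fibroblast-like cells, at a similar median depth (22832 against 21468 UMIs per cell), stood at 2.08 CPM, with a UMI in 4.83% of cells and 0.668% of thinned cells. The other 5 named classes lay between 1.81 and 4.70 CPM. Macrophage-like cells thus gave 83.1% of all Csf1r UMIs from 7.74% of all UMIs, and by library this share ran from 56.2 to 92.2%; most of the remainder lay in unnamed clusters described further on.

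The low Csf1r level outside macrophages was set beside that of the macrophage markers, since free RNA in droplets carries the genes of one source together. In fibroblast-like cells Csf1r was at 0.125 to 0.628% of its macrophage-like level, and the median of the 19 markers was at 0.0745 to 0.5001%. Spi1 was at 0.0592 to 0.425%, Irf8 at 0.0729 to 0.341% and Csf2rb at 0.023 to 0.496%. Csf3r was at 0.199 to 2.63%. Csf1r and Csf3r were above the marker median in 8 of 9 libraries each, Csf2rb in 5, Irf8 in 3 and Spi1 in 2; the part of free RNA in these levels was not tested. Csf2ra stood far above the marker median in 9 of 9, at 21.2 to 43.7%. The highest single marker was at 8.63 to 21.1% by library, and in Per1-/- on day 4 it came close (20.4 against 21.2% for Csf2ra).

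The transcription factors followed the same division. Spi1 stood at 361 CPM in macrophage-like cells, with a UMI in 98.2% of them, and at 0.786 CPM in fibroblast-like cells. Irf8 stood at 198 CPM with a UMI in 92.3% of cells, against 0.384 CPM. Pooled over libraries, neither exceeded 2 CPM in any of the other 5 named classes.

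**Figure D1:**
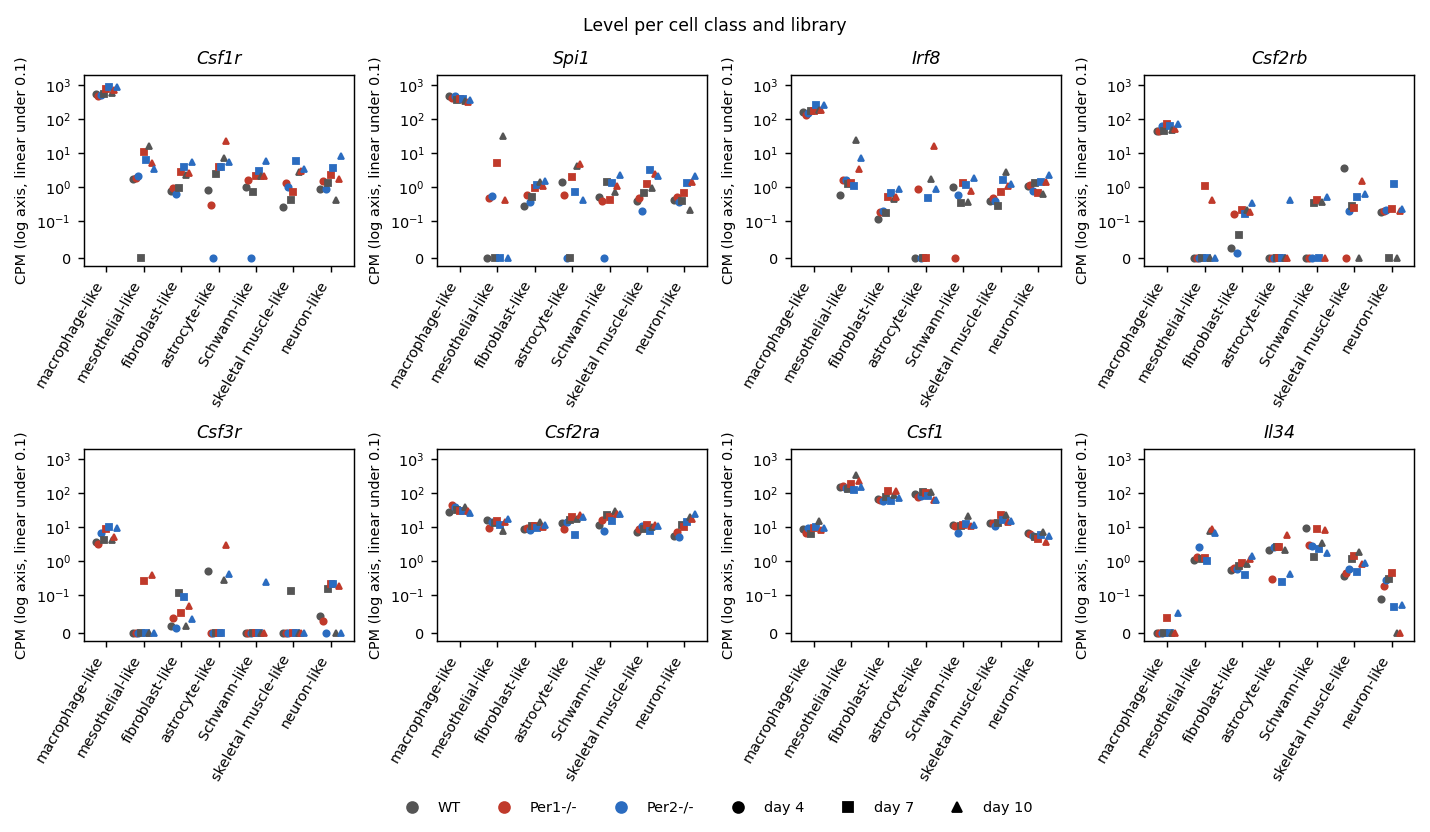
Level of 8 members in each named class, as CPM on a log axis that is linear under 0.1, with one point for each library, coloured by genotype and shaped by day. Csf1r, Spi1, Irf8, Csf2rb and Csf3r are highest in macrophage-like cells, Csf1 is highest in mesothelial-like cells, and Csf2ra is spread over the classes.

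The ligand Csf1 was counted mainly in stromal classes. Pooled levels were 175 CPM in mesothelial-like, 91.9 CPM in astrocyte-like and 77.7 CPM in fibroblast-like cells, then 14.9 CPM in skeletal muscle-like, 12.2 CPM in Schwann-like, 9.39 CPM in macrophage-like and 6.01 CPM in neuron-like cells. In macrophage-like cells Csf1 was highest in WT on day 10, at 15.9 CPM against 6.28 to 10.5 CPM elsewhere, the library in which they held most fibroblast marker RNA; its part in this level was not tested. A Csf1 UMI was found in 76.7% of mesothelial-like and 68.9% of fibroblast-like cells. By abundance the order was another one: fibroblast-like cells, with 53.4% of all UMIs, gave 70.8% of Csf1 UMIs (45.5 to 81.2% by library), mesothelial-like cells 3.20%, astrocyte-like cells 2.25% and macrophage-like cells 1.24%, with 20.5% from unnamed clusters. Most UMIs of the receptor and most UMIs of this ligand thus lay in different classes.

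In mesothelial-like cells, the lining cells of body cavities, Csf1 was at 157, 132 and 343 CPM in WT on days 4, 7 and 10, at 169, 196 and 235 CPM in Per1-/- and at 140, 129 and 155 CPM in Per2-/-. These rest on few cells, from 118 in Per1-/- on day 7 down to 14 in WT on day 10, and the highest value belongs to the library with the fewest cells. It was also the library whose mesothelial-like cells held most macrophage RNA, with the median marker at 8.58% of its macrophage-like level; whether this moved the value was not tested. Csf1 was higher in mesothelial-like than in fibroblast-like cells of the same library in 9 of 9 libraries, by 1.63 to 3.75 times (median 2.19). It was higher than in astrocyte-like cells in 9 of 9 as well. Astrocyte-like and fibroblast-like cells were not separated in this way, astrocyte-like cells being higher in 6 of 9.

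In fibroblast-like cells Csf1 was at 69.7, 80.8 and 91.6 CPM in WT on days 4, 7 and 10, at 65.1, 116 and 115 CPM in Per1-/- and at 57.9, 59.4 and 71.1 CPM in Per2-/-. Per2-/- was the lowest genotype on each day, and Per1-/- was the highest on days 7 and 10 but not on day 4. The fibroblast-like level exceeded the macrophage-like level in 9 of 9 libraries, by 5.68 to 13.5 times, and exceeded the neuron-like and Schwann-like levels in 9 of 9.

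Fibroblast-like cells were not uniform in Csf1. Among their 11 clusters the pooled level ran from 37.7 CPM in cluster 31, led by the division genes Pclaf and Top2a, to 130 CPM in cluster 3, led by Steap4, Ebf2 and Clec3b. In cluster 31, 33.5% of the cells had been marked as doublets and left out. Over libraries with at least 50 cells of the cluster, cluster 3 spanned 95.7 to 148 CPM (6 libraries) and cluster 31 spanned 20.7 to 44.8 CPM (3 libraries), so these did not overlap. Cluster 19, led by Sncg, Anxa8 and Ly6a, reached 75.4 to 157 CPM (7 libraries) and overlapped cluster 3. Cluster 2 lay at 44.8 to 64.3 CPM (8 libraries), below every library of cluster 3.

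Il34 was rare. All kept cells together held 1277 Il34 UMIs. The pooled level was 3.74 CPM in Schwann-like cells (135 UMIs), 2.68 CPM in mesothelial-like cells (48 UMIs), 1.63 CPM in astrocyte-like cells (39 UMIs), 0.733 CPM in fibroblast-like cells (652 UMIs, 51.1% of all) and 0.163 CPM in neuron-like cells. Macrophage-like cells held 2 UMIs. Schwann-like and mesothelial-like cells exceeded fibroblast-like cells in 9 of 9 libraries each, whereas Schwann-like exceeded mesothelial-like cells in 6 of 9.

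By library, Il34 in Schwann-like cells was at 9.55, 1.37 and 3.46 CPM in WT on days 4, 7 and 10, at 3.08, 8.79 and 8.38 CPM in Per1-/- and at 2.80, 2.37 and 1.81 CPM in Per2-/-, from 4 to 33 UMIs each. No order by day is visible in them. In mesothelial-like cells the values were 1.12, 1.20 and 7.99 CPM in WT, 1.37, 1.30 and 8.85 CPM in Per1-/- and 2.60, 1.05 and 6.83 CPM in Per2-/-, and the highest of each genotype was that of day 10. Those of WT and Per2-/- on day 10 rest on 1 and 4 UMIs, and only that of Per1-/- on 22. Outside the named classes, an unnamed cluster led by Foxd1 and Pax9 stood at 2.11 CPM.

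**Figure D2:**
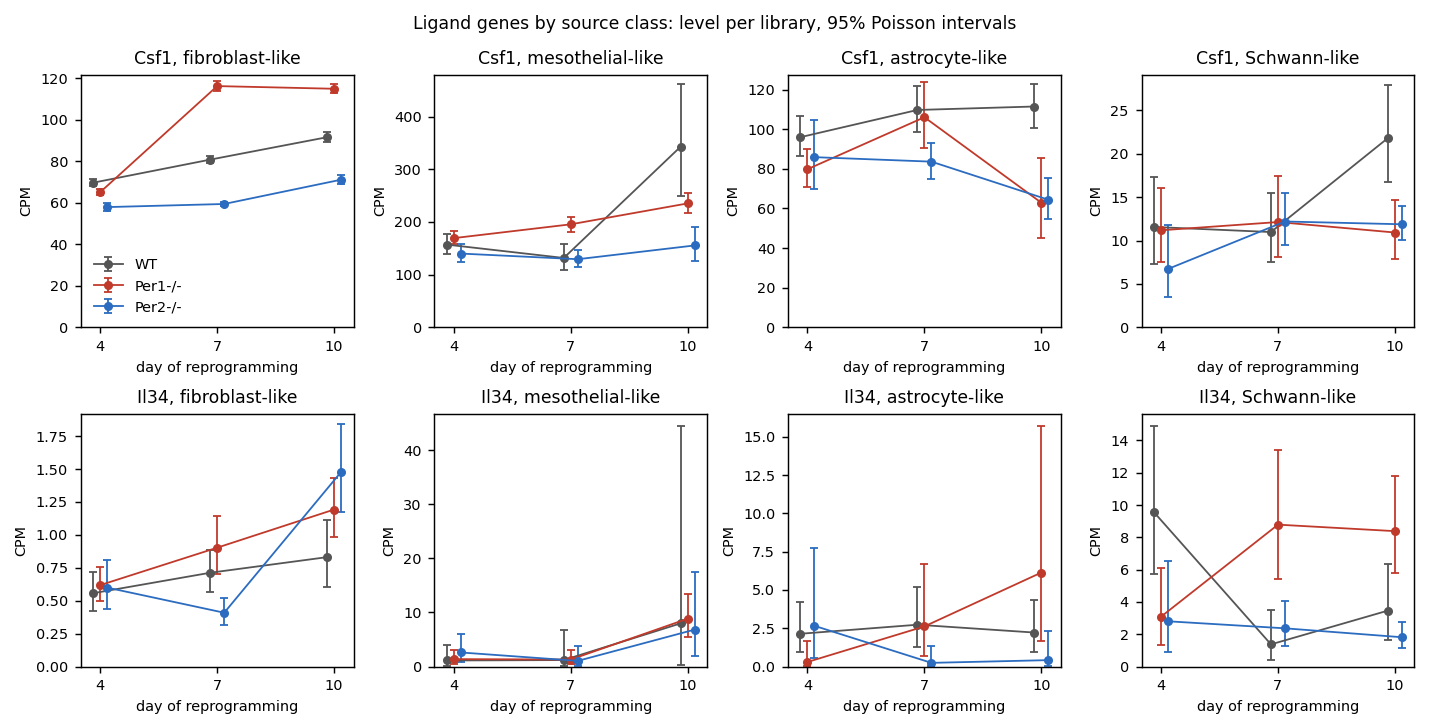
Csf1 and Il34 in 4 classes by day of reprogramming, in CPM, with one point for each library coloured by genotype and 95% Poisson intervals as bars. Each panel has its own scale. Csf1 of mesothelial-like cells lies above that of fibroblast-like cells in each library, and the intervals of Il34 are wide where few UMIs were counted.

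Csf2, the third ligand, had 0 UMIs in 73557 cells, which allows a share of up to 0.00408% of cells with a UMI. It was not detectable at this depth in any class, macrophage-like cells included (0 of 5543 cells, up to 0.0541%).

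The chains of the GM-CSF receptor were distributed differently from each other. The beta chain Csf2rb stood at 58.0 CPM in macrophage-like cells, with a UMI in 65.5% of them, and at 0.139 CPM in fibroblast-like cells (0.296% of cells). Its neighbour and close paralog Csf2rb2, a beta chain used by the mouse IL3 receptor, stood at 18.3 CPM in macrophage-like cells. Reads of one can be assigned to the other or dropped, so the split between this pair is uncertain. The alpha chain Csf2ra was at 31.9 CPM in macrophage-like cells but also at 21.7 CPM in Schwann-like, 14.1 CPM in astrocyte-like, 13.3 CPM in mesothelial-like, 11.04 CPM in neuron-like, 10.3 CPM in fibroblast-like and 9.52 CPM in skeletal muscle-like cells. Fibroblast-like cells gave 40.4% of all Csf2ra UMIs and macrophage-like cells 18.1%, and a UMI was found in 21.2% and 44.9% of their cells. Macrophage-like cells were above fibroblast-like cells in 9 of 9 libraries, by 2.29 to 4.72 times, and above Schwann-like cells in 9 of 9, by 1.06 to 5.06 times.

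Because the alpha chain was counted, pooled over libraries, at 9 CPM or more in all named classes, while Csf2rb had 7468 UMIs in macrophage-like cells against 217 in the other named classes (and 1851 in unnamed clusters) and Csf1 lay mainly in stromal classes, the bases before the RefSeq starts (GRCm38.p6) of Csf2ra, Csf2rb2 and Csf1 are shown, in lower case and read 5′ to 3′ on the gene's strand; the window was available for 6 of the 10 genes looked for, Csf2rb2 included. The window was missing for Csf1r, Il34, Csf2rb and Spi1, so that of the paralog Csf2rb2 is shown and that of Csf2rb itself is not. Capitals mark the letters of a PU.1 core motif, GAGGAA, on either strand. The 239 bases of Csf2ra are those outside annotated exons, chr19:61228430-61228668 (minus strand). Csf2rb2 is given at chr15:78305722-78305971 (minus strand), and Csf1, the stromal ligand, at chr3:107760470-107760719 (minus strand).
Csf2ra: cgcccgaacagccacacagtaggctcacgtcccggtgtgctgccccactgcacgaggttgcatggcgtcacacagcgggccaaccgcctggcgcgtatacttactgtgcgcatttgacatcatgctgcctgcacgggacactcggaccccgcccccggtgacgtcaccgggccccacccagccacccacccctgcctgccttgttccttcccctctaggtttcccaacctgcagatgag
Csf2rb2: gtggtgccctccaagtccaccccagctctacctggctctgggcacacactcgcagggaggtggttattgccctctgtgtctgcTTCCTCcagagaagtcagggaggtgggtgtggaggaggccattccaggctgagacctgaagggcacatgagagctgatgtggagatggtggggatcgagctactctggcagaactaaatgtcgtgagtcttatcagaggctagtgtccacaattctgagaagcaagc
Csf1: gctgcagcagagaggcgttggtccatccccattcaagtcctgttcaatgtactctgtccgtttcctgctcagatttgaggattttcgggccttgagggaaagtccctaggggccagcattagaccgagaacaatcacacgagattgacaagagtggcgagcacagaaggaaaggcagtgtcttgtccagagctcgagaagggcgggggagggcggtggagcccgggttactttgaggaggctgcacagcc
GAGGAA was found in 23.3% of 32851 promoter windows of 250 bases and the longer GAGGAAGT, which contains it, in 2.44%. The shorter form occurred once in Csf2rb2 (the capitals TTCCTC read on the other strand). In Csf3r it occurred once, beginning 86 bases before the start, within the last 109 bases of the window, which are exonic. It occurred 2 times in the whole window of Csf2ra, beginning 14 and 8 bases before the start, where the last 11 bases are exonic and not printed, so that the printed run holds only the first letters of one of them, without capitals, and was not in the windows of Csf1, Irf8 or Csf2; the longer form was in none of the 6. The Csf2ra window holds 17 CpG dinucleotides, as many as or fewer than 23.5% of all windows, against 3 in Csf2rb2 (71.0%) and 10 in Csf1 (37.8%). The windows of Irf8 hold 29 (6.78%) and 8 (43.0%), and the median over all windows is 6.

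Csf2ra was also set out by day, first in the neuron-like cells, the intended product of these cultures. It was at 5.68, 11.8 and 20.1 CPM in WT on days 4, 7 and 10, at 7.19, 10.2 and 17.9 CPM in Per1-/- and at 5.32, 14.1 and 25.5 CPM in Per2-/-. Day 10 over day 4 was 3.54 times in WT [2.69 to 4.66], 2.49 times in Per1-/- [1.93 to 3.18] and 4.80 times in Per2-/- [3.74 to 6.24]. The 3 days did not overlap. The share of all genes whose days lie apart in neuron-like or Schwann-like cells was not counted, so the pattern cannot be called particular to Csf2ra. In Schwann-like cells the values were 12.1, 23.7 and 31.2 CPM in WT, 16.6, 19.7 and 25.2 CPM in Per1-/- and 7.84, 15.7 and 25.6 CPM in Per2-/-, again in the order of days within each genotype. An exact two-sided permutation test of day 10 against day 4, chosen after these values were seen, gave p = 0.10 in both classes, the smallest that 3 libraries against 3 allow. Since these days were already seen to lie apart, its outcome was fixed and adds no support. It also did not pair the libraries by genotype. Day 10 was also processed with another Cell Ranger version than days 4 and 7, which cannot be told apart from day. In neuron-like cells the median macrophage marker, as a share of its macrophage-like level, was also higher on day 10 than on day 4 in each genotype (0.185 against 0.113% in WT, 0.320 against 0.244% in Per1-/- and 0.674 against 0.0961% in Per2-/-), while Csf2ra was at 13.4 to 94.3%; the part of RNA carried over from macrophages or other classes in the day pattern was not tested. Day 10 stood above day 4 in each genotype in further classes too. In fibroblast-like cells Csf2ra was at 9.05, 11.1 and 14.4 CPM in WT, at 9.77, 10.7 and 9.99 CPM in Per1-/- and at 8.49, 9.93 and 11.8 CPM in Per2-/-. For Per1-/- days 4 and 10 hardly differed there, and day 7 was above both. In astrocyte-like cells the range was 9.13 to 14.2 CPM on day 4 and 17.5 to 23.0 CPM on day 10, and in skeletal muscle-like cells 7.55 to 10.7 CPM and 10.1 to 11.8 CPM. Macrophage-like cells of Per1-/- and Per2-/- were lower on day 10 than on day 4. Mesothelial-like cells of WT were at 16.3 CPM [10.9 to 23.4] on day 4. Their day 10 value of 7.99 CPM [0.202 to 44.5] rests on 1 UMI in 14 cells and gives no direction.

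**Figure D3:**
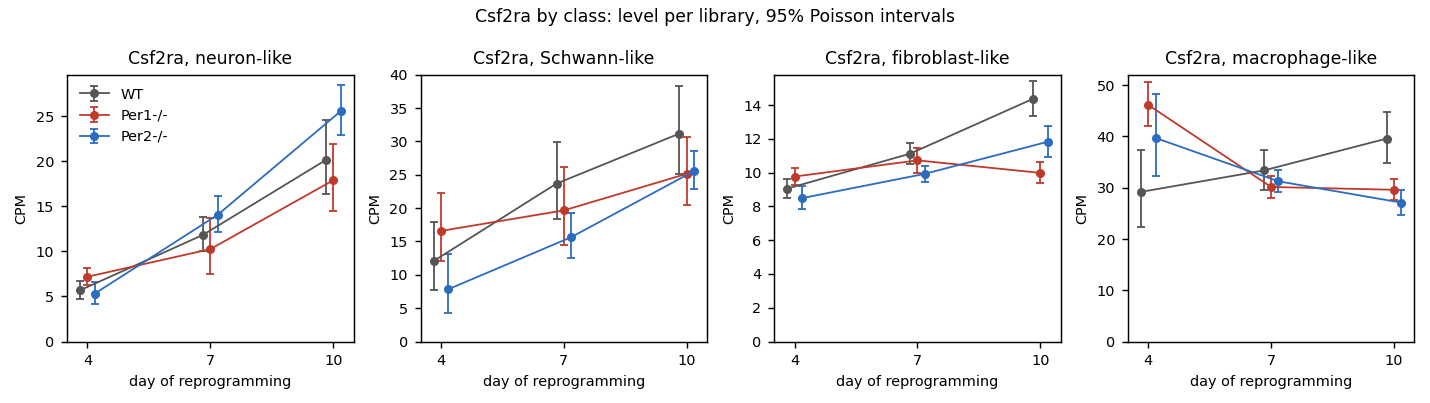
Csf2ra in 4 classes by day of reprogramming, in CPM, with one point for each library coloured by genotype and 95% Poisson intervals as bars. In neuron-like and Schwann-like cells the points of day 10 lie above those of day 4 in all 3 genotypes, while macrophage-like cells of Per1-/- and Per2-/- were highest on day 4.

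Csf3r was low, and among the named classes highest in macrophage-like cells, which gave 43.7 to 91.7% of its UMIs by library. Fibroblast-like cells gave 1.04 to 16.0% and unnamed clusters 5.18 to 46.5%. The macrophage-like level of Csf3r was 7.45 CPM, with a UMI in 14.1% of cells, against 0.058 CPM and 0.124% in fibroblast-like cells. By library it was at 3.71, 4.34 and 4.17 CPM in WT on days 4, 7 and 10, at 3.24, 8.81 and 5.33 CPM in Per1-/- and at 7.01, 10.6 and 9.53 CPM in Per2-/-, from 8 to 287 UMIs. Per2-/- was the highest genotype on each day. The neutrophil markers named above were at or near 0 in the same cells.

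The macrophage-like class held 3 clusters, and the members were not level across them. Cluster 7 (3726 cells) was led by Fcgr2b, Fcrls and Pf4, cluster 27 (769 cells) by Ighm, Siglech and Cx3cr1, and cluster 20 (1048 cells) by division genes such as Mki67 and Cep55. In cluster 20, 19.8% of the cells had been marked as doublets and left out, against 0.214% in cluster 7 and 0.517% in cluster 27. What any doublets left in cluster 20 do to its levels was not tested. Csf1r ranged from 537 to 920 CPM in cluster 7 over the 8 libraries with at least 20 of its cells, from 650 to 948 CPM in cluster 27 and from 301 to 476 CPM in cluster 20. Cluster 20 thus lay below every library of the other two. Its lowest value was that of WT on day 10, where 60.3% of its cells held a Csf1r UMI, and without that library its range was 368 to 476 CPM. Within a library, cluster 7 exceeded it in 8 of 8 by 1.37 to 2.61 times, and cluster 27 exceeded it in 9 of 9 by 1.68 to 2.34 times, while cluster 7 exceeded cluster 27 in 4 of 8.

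Spi1 was highest in cluster 27, at 440 to 673 CPM, against 314 to 405 CPM in cluster 7 and 243 to 402 CPM in cluster 20; the range of cluster 27 lay above the other two, which overlapped. Its level in cluster 27 exceeded that in cluster 7 in 8 of 8 libraries, by 1.35 to 1.56 times. Irf8 was lowest in the dividing cluster (87.8 to 190 CPM) and lay at 150 to 276 CPM in cluster 7 and 144 to 290 CPM in cluster 27. Csf2rb was likewise lowest there, at 23.2 to 55.1 CPM. Csf2ra did not separate the clusters, which spanned 24.8 to 56.4, 31.9 to 49.1 and 21.7 to 48.2 CPM for clusters 7, 27 and 20.

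A further cluster of 997 cells, led by Il7r, Adam8 and Tnip3, held all 19 macrophage markers at raised level but stayed unnamed, since its 10 leading genes held none of them and a marker of another class. Csf1r was at 357 to 545 CPM in it by library, below cluster 27 in 9 of 9 libraries, and Spi1 was at 332 to 414 CPM. Csf2ra was higher in it than in cluster 20 in 8 of 9 libraries, at 36.7 to 74.8 CPM.

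**Figure D4:**
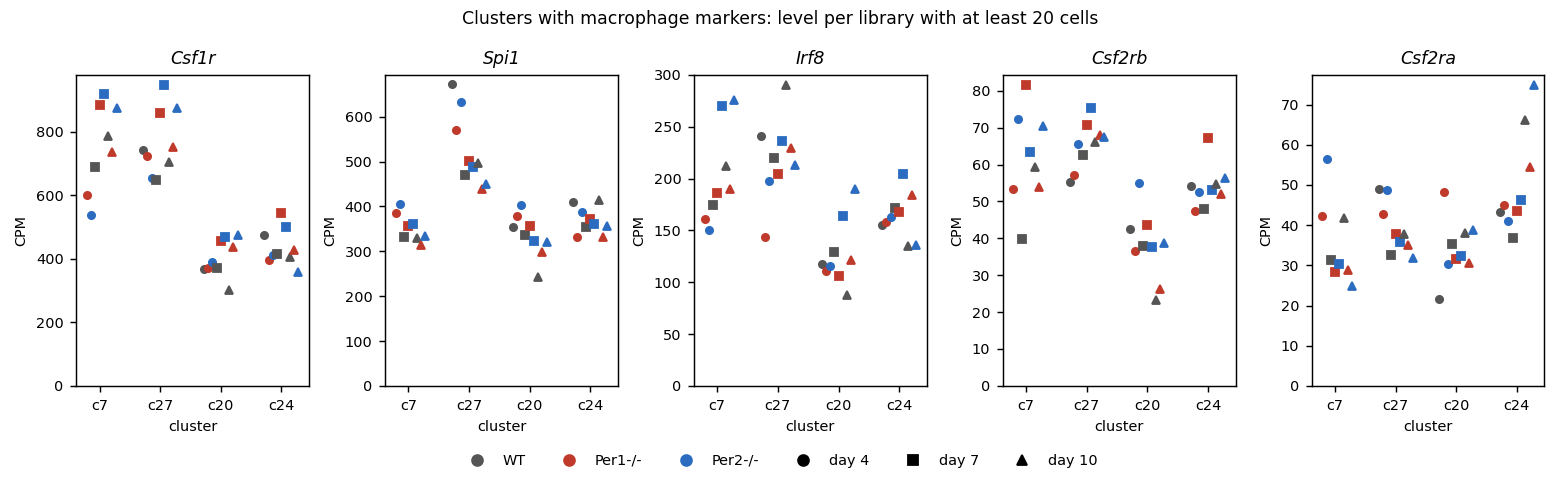
Members in clusters 7, 27 and 20 of the macrophage-like class (c7, c27, c20) and in the unnamed cluster led by Il7r (c24), in CPM, with one point for each library with at least 20 cells of the cluster. For Csf1r, cluster 20 lies under clusters 7 and 27 in all libraries, and for Spi1 cluster 27 lies above the rest.

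The mix of these clusters differed between libraries. Cluster 7 made up 17.5, 39.1 and 39.1% of macrophage-like cells in WT on days 4, 7 and 10, 24.3, 71.2 and 78.5% in Per1-/- and 18.3, 78.6 and 76.2% in Per2-/-. Cluster 20, the dividing one, made up 48.8, 38.5 and 46.1% in WT, 57.8, 19.0 and 13.3% in Per1-/- and 47.0, 9.78 and 3.93% in Per2-/-. These shares leave out the unnamed Il7r cluster, which was most frequent beside the class on day 4. With its cells in the denominator, cluster 20 made up 27.7, 26.1 and 40.6% in WT, 36.5, 15.1 and 12.3% in Per1-/- and 27.1, 9.04 and 3.84% in Per2-/-. Day 4 then no longer had the highest share in WT. That rests on WT on day 10, where many cells of cluster 20 held no Csf1r UMI, as given above. The macrophage-like class of that library also held 4404 CPM of fibroblast markers. What this does to its cluster shares was not tested. A class-level value of Csf1r therefore mixes clusters of unequal Csf1r in unequal parts.

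Across the class, Csf1r was at 531, 539 and 583 CPM in WT on days 4, 7 and 10, at 470, 769 and 683 CPM in Per1-/- and at 493, 858 and 852 CPM in Per2-/-. The genotypes lay close together on day 4, and both deletions were above WT on days 7 and 10. On day 7 the ratio to WT was 1.43 in Per1-/- [1.38 to 1.47] and 1.59 in Per2-/- [1.54 to 1.64]. Within cluster 7 Csf1r was at 673 (14 cells), 690 and 786 CPM in WT, at 602, 885 and 735 CPM in Per1-/- and at 537, 920 and 876 CPM in Per2-/-, so that Per1-/- was above WT on day 7 and below it on day 10. Within cluster 20 it was at 368, 370 and 301 CPM in WT, 370, 455 and 436 CPM in Per1-/- and 391, 468 and 476 CPM in Per2-/-.

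Other members of the class had their own patterns. Irf8 was at 158, 165 and 179 CPM in WT, at 126, 167 and 181 CPM in Per1-/- and at 146, 251 and 258 CPM in Per2-/-, and Per2-/- on days 7 and 10 lay above all other libraries. Spi1 was at 454, 365 and 327 CPM in WT, at 409, 371 and 321 CPM in Per1-/- and at 473, 370 and 357 CPM in Per2-/-, with day 4 the highest day of each genotype. Csf2rb was at 43.1, 44.1 and 46.6 CPM in WT, at 43.0, 70.5 and 50.01 CPM in Per1-/- and at 60.7, 61.1 and 67.9 CPM in Per2-/-. All 3 Per2-/- libraries were above all WT libraries for Csf2rb and for Csf3r, whereas Csf1r overlapped between these genotypes. The share of all genes that separate these genotypes in this way was not counted. In the edgeR comparison below, 2138 of 11867 genes had an unadjusted p under 0.05 and 0 passed after adjustment.

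**Figure D5:**
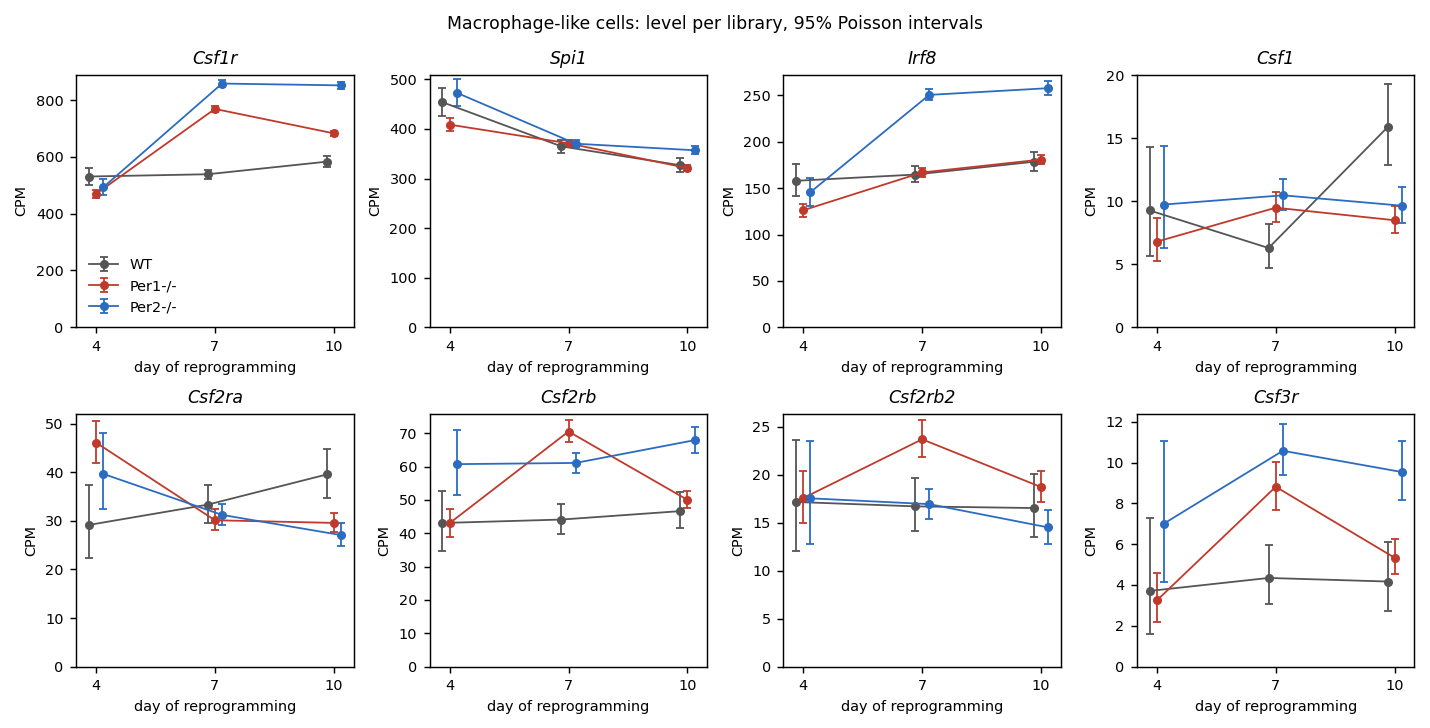
Members and Csf2rb2 in macrophage-like cells by day of reprogramming, in CPM, with one point for each library coloured by genotype and 95% Poisson intervals as bars. Csf1r and Irf8 of Per2-/- on days 7 and 10 lie above all WT libraries, and Spi1 is highest on day 4 in each genotype.

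Genotypes and days were then compared by edgeR's quasi-likelihood test on the class sums of all 9 libraries, with genotype and day as factors and Benjamini-Hochberg adjustment over all genes tested. With 1 library per genotype and day, the other factor's levels stand in for repeats. These p-values therefore measure the spread between libraries of different days or genotypes, not between animals or cultures of one group. In macrophage-like cells 7 members were tested (Il34 and Csf2 were too low) and 0 of 7 passed an adjusted p of 0.05 in any of the 5 comparisons. Over all 11867 genes tested, 0.00843% passed in Per1-/- against WT, 0% in Per2-/- against WT (2138 genes at an unadjusted p under 0.05, and 377 called by DESeq2), 0.059% in Per1-/- against Per2-/-, 0.699% in day 7 against day 4 and 0.91% in day 10 against day 7. Of the 35 member tests in this class, 11 (31.4%) had an unadjusted p under 0.05, against 14.8% of the 59335 tests of all genes. The comparisons share genes and libraries, so these tests are not independent. DESeq2, run as an alternative, called 1 member in Per2-/- against WT and 1 in day 7 against day 4, where it called 643 genes in all.

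In macrophage-like cells the largest genotype difference among the members was that of Csf3r in Per2-/- against WT, at a log2 fold change of 1.31 ± 0.26 (SE; edgeR adjusted p = 0.132). Under the 16 alternatives it ranged from 1.12 to 1.53 with adjusted p from 0.0240 to 0.659, and 4 of these were under the threshold: DESeq2, no filter on low counts, and the fits without WT on day 4 or without Per2-/- on day 4. Csf2rb differed by 0.62 ± 0.17 (adjusted p = 0.155), Csf1r by 0.47 ± 0.18 (adjusted p = 0.226) and Irf8 by 0.46 ± 0.15 (adjusted p = 0.198) in the same edgeR comparison. Csf1r passed in 1 of 16 alternatives, the fit without WT on day 4 (0.71, adjusted p = 0.0458; range over alternatives 0.0458 to 0.667). Irf8 passed in 1 of 16, without Per2-/- on day 4 (0.64, adjusted p = 0.0410; range 0.0410 to 0.659). Over the fits that left out 1 library, 0 to 692 of all genes were called in this comparison. The median over the 7 members was 0.46 against -0.01 over all genes, and no member differed between these genotypes past the threshold when all libraries were used with edgeR and its filter.

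In Per1-/- against WT the difference was 0.64 ± 0.26 for Csf3r (edgeR adjusted p = 0.348), 0.39 ± 0.17 for Csf2rb (adjusted p = 0.373), 0.28 ± 0.17 for Csf1r (adjusted p = 0.548) and 0.00 ± 0.15 for Irf8. Between the deletions, Per1-/- was lower than Per2-/- by 0.67 ± 0.23 for Csf3r and by 0.45 ± 0.15 for Irf8 on the log2 scale, values that did not pass (edgeR adjusted p = 0.294 for both). Between day 7 and day 4, Csf3r differed by 0.95 ± 0.27 (adjusted p = 0.109, the lowest of a member in this class; 0.0514 to 0.440 over the alternatives), Csf1r by 0.56 ± 0.18 (adjusted p = 0.127), Irf8 by 0.47 ± 0.15 (adjusted p = 0.142) and Spi1 by -0.21 ± 0.11 (adjusted p = 0.303). The day difference of Csf1r was unequal between genotypes in the counts: day 7 over day 4 was 1.02 in WT [0.951 to 1.08], 1.64 in Per1-/- and 1.74 in Per2-/-. The Per1-/- libraries of these days also differ in Xist (489 and 0.068 CPM), which cannot be told apart from day there. The day difference passed with DESeq2 (adjusted p = 0.0374) and without WT on day 4 (0.81, adjusted p = 0.0388), and its adjusted p ranged from 0.0374 to 0.447 over the alternatives. Over the fits that left out 1 library, 0 to 420 of all genes were called in day 7 against day 4.

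In fibroblast-like cells 7 members were tested as well (Csf3r and Csf2 were too low) and 0 of 7 passed with edgeR in any comparison. Over 16548 genes, 0% passed in each genotype comparison, where an unadjusted p under 0.05 was reached by 1633, 1118 and 2169 genes and DESeq2 called 319, 84 and 372 for Per1-/- against WT, Per2-/- against WT and Per1-/- against Per2-/-. In day 7 against day 4, 3.58% passed, and in day 10 against day 7, 1.22%. Of 35 member tests, 8 (22.9%) had an unadjusted p under 0.05, against 12.3% of the 82740 tests of all genes. They concern Csf1 and, more often, the macrophage genes Irf8, Csf1r and Spi1, which were at 0.628% or less of their macrophage-like level. The comparisons share genes and libraries, so these tests are not independent. DESeq2 called 1 member in Per1-/- against Per2-/- and 1 in day 7 against day 4, where it called 1488 genes in all. For Csf1 the difference of Per1-/- from Per2-/- was 0.61 ± 0.15 on the log2 scale (edgeR adjusted p = 0.293). Per1-/- was higher on all 3 days, by 1.12 times on day 4 [1.08 to 1.17], 1.96 times on day 7 [1.90 to 2.01] and 1.62 times on day 10 [1.56 to 1.68]. This difference passed in 2 of 16 alternatives, with DESeq2 (adjusted p = 0.0118) and without Per1-/- on day 4 (0.81, adjusted p = 0.0139), and its adjusted p ranged from 0.0118 to 0.906. The fit without Per1-/- on day 4 keeps only the Per1-/- libraries with Xist near 0, so embryo sex and genotype cannot be told apart in it. Over the fits that left out 1 library, 0 to 677 of all genes were called in this comparison. Against WT, Csf1 differed by 0.32 ± 0.15 in Per1-/- (adjusted p = 0.528) and by -0.29 ± 0.15 in Per2-/- (adjusted p = 0.737).

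The macrophage genes counted in fibroblast-like cells had the largest day 7 against day 4 differences among the members named in this class, with the share of macrophage-like cells in the culture moving beside them. Irf8 differed by 1.31 ± 0.33 on the log2 scale between day 7 and day 4 (edgeR adjusted p = 0.0768), Csf1r by 1.49 ± 0.41 (adjusted p = 0.0955) and Spi1 by 1.04 ± 0.33 (adjusted p = 0.127). Csf1r in fibroblast-like cells was at 0.730, 0.941 and 2.27 CPM in WT on days 4, 7 and 10, at 0.901, 2.73 and 2.56 CPM in Per1-/- and at 0.613, 3.71 and 5.35 CPM in Per2-/-. Macrophage-like cells made up 1.01, 4.48 and 5.64% of kept cells in WT, 2.74, 18.4 and 14.97% in Per1-/- and 1.49, 11 and 9.19% in Per2-/-. With the unnamed clusters led by Il7r and of low UMI counts (cluster 15) added, they made up 1.82, 6.76 and 13.9% in WT, 4.39, 23.9 and 16.7% in Per1-/- and 2.66, 12.2 and 9.66% in Per2-/-, which moves WT on days 4, 7 and 10 and the other genotypes on day 4 by more than 1.5 times. Both were lowest on day 4 in each genotype, with or without these clusters. From day 7 to day 10 the level of Csf1r and the share of macrophage-like cells moved in the same direction in WT and Per1-/-. In Per2-/- Csf1r rose from 3.71 to 5.35 CPM while the share fell from 11 to 9.19%. The part of free RNA in these differences was not tested. The DESeq2 call of Csf1r in day 7 against day 4 (adjusted p = 0.00269, with a range of 0.00269 to 0.328 over the alternatives) concerns these levels.

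Over whole cultures, Csf1r was at 10.9, 37.5 and 55.0 CPM in WT on days 4, 7 and 10, at 24.9, 164 and 130 CPM in Per1-/- and at 14.7, 97.6 and 89.8 CPM in Per2-/-. Day 4 was the lowest day of each genotype and Per1-/- the highest genotype on each day, as it was for the share of macrophage-like cells. Such sums alone do not separate the number of cells of a type from their RNA per cell, but the class values give both. The lowest and highest sums were those of WT on day 4 and Per1-/- on day 7. Between these libraries the macrophage-like share of kept cells went from 1.01 to 18.4%. Csf1r within the macrophage-like class went from 531 to 769 CPM. The whole-culture level of Csf1 varied less than that of Csf1r, from 43.8 CPM in Per2-/- on day 10 to 82.0 CPM in Per1-/- on day 7.

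Around the members, 4 lists of 88 pathway genes were read in the same fits. They hold 13 receptor partners and related cytokines, 29 proteins that signal below CSF1R, 10 below the GM-CSF receptor and 36 macrophage transcription factors, of which 6, 28, 8 and 30 were tested in macrophage-like cells. None of them passed with edgeR in any comparison of that class, and 37 of 40 pairs of list and comparison over both classes had no call. In fibroblast-like cells, where 7, 28, 9 and 32 were tested, day 7 against day 4 called 2 CSF1R signalling genes upward, 1 transcription factor upward and 1 downward. These are 4 of 76 list genes tested, or 5.26%, beside 3.58% of all genes. In day 10 against day 7 it was 1 of 76, or 1.32%, beside 1.22%. The kinase subunit gene Pik3r1 rose by 0.88 ± 0.12 on the log2 scale (edgeR adjusted p = 0.0146) and Pik3cg, a leukocyte kinase gene, by 2.49 ± 0.44 (adjusted p = 0.0277). Pik3cg was at 0.029 to 0.529 CPM in fibroblast-like and 70.9 to 107 CPM in macrophage-like cells. Bhlhe41, a clock-linked repressor, rose by 0.82 ± 0.14 (adjusted p = 0.0243), and Id3, an inhibitor of helix-loop-helix factors, fell by 0.81 ± 0.14 (adjusted p = 0.0259). In day 10 against day 7 Bhlhe40, on the GM-CSF receptor list, fell by 0.55 ± 0.10 (adjusted p = 0.047).

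The genes most like the receptor and ligands in their levels were found over 52 sums, each of a named class with at least 100 cells in a library. Pearson's r of log2(CPM + 1) with Csf1r was 0.990 for Tyrobp, Fcer1g and C1qc, all of them macrophage markers used to name the class. For Csf1 it was 0.956 with Osmr, 0.936 with Gstt1 and 0.933 with Gstm2. For Il34 it was 0.854 with Sema3b, 0.846 with Dag1 and 0.844 with Gfra2. These points share libraries and differ in depth, and r is given as a description.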

How the data were processed

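Single-cell RNA-seq counts of 9 libraries were used, 1 for each genotype and day. The authors made them with Cell Ranger against mm10 (the submitters' notes name version 7.1, and the deposited matrix headers name 4.0.0 for days 4 and 7 and 6.0.0 for day 10) and deposited raw UMI counts per gene and barcode. Feature tables held 31053 or 32285 genes; the 30406 shared identifiers held 99.3 to 99.9% of UMIs. From 95603 barcodes, 81999 had at least 3000 UMIs and at most 20% mitochondrial UMIs, and 8442 ranked highest by Scrublet (0.8% per 1000 barcodes) were left out as doublets. Library totals were 126625215 to 353198559 UMIs, which set the counting intervals. The median was 3552 UMIs per barcode in WT on day 10, the shallowest library.

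Cells were clustered in scanpy 1.11.5 (2000 variable genes, 30 components, 15 neighbours, Leiden resolution 1, leidenalg 0.10.2) without the members, the pathway genes, sex-linked and mitochondrial genes. Outside the fibroblast-like class, a cluster took a class name where at least 50% of the class's markers passed. To pass, a marker was at least 2 times higher than elsewhere and found in at least 10% of the cluster. This limit was tightened after the clusters were seen, as were the limits on leading genes and on markers of other classes. The fibroblast-like name followed a different rule. It needed 10 or more of the 20 fibroblast markers to be present. The mean log2 fold of any other marker list also had to stay under 0.5. UMI sums per class and library were compared with edgeR 4.0.16 (quasi-likelihood F-test, two-sided, TMM, filterByExpr, genotype and day as factors) in R 4.3.3, with Benjamini-Hochberg adjustment and a threshold of 0.05; the scripts were tested on simulated data. Levels between classes were described and not tested, since cells were clustered into classes. Alternatives were DESeq2 1.42.0, no filter on low counts, other doublet and clustering settings, fits without the other factor, and fits leaving out each library. A further pair, chosen after seeing the data, added the unnamed cluster led by Il7r and Adam8 to the macrophage-like class or dropped the limit on markers of other classes for fibroblast-like clusters.

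All 9 members were named in every class, with Csf2rb2. From each pathway list up to 3 genes in each direction with the smallest p among those past the threshold were named, and for Csf1r, Csf1 and Il34 the 3 genes of highest r. Cluster values and the day pattern of Csf2ra were chosen after they were seen. The members and lists were chosen with earlier results of these data known. Promoter windows came from RefSeq and were searched on both strands.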

Additional observations from a re-analysis of the deposited data

Results flagged for a closer look

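Some members went up in one genotype and down in another between the same days in macrophage-like cells; these differences between genotypes were not tested, and each value compares 1 library with 1 other (95% counting intervals in brackets). For Csf1r, day 10 over day 7 was 1.08 in WT [1.04 to 1.13], 0.888 in Per1-/- [0.870 to 0.906] and 0.992 in Per2-/- [0.973 to 1.01]. For Csf2ra, day 10 over day 4 was 1.36 in WT [1.02 to 1.82], 0.641 in Per1-/- [0.571 to 0.721] and 0.682 in Per2-/- [0.550 to 0.853]. For Csf2rb, day 10 over day 7 was 1.06 in WT [0.905 to 1.23], 0.709 in Per1-/- [0.661 to 0.761] and 1.11 in Per2-/- [1.03 to 1.20]. WT day 10, the library with most barcodes under the UMI limit, enters each of the WT ratios.

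Signal of the members also lay in 2 unnamed clusters that the comparisons did not use, except that an alternative added the cluster led by Il7r and Adam8 to the macrophage-like class. In the 997 cells of the cluster led by Il7r and Adam8, Csf1r was at 455 CPM, Spi1 at 360 CPM, Irf8 at 169 CPM, Csf2rb at 54.8 CPM, Csf2ra at 45.5 CPM and Csf3r at 6.10 CPM. In cluster 15, with 606 cells left after 70.2% had been marked as doublets and a median of 4855 UMIs, Csf1r was at 319 CPM, Spi1 at 186 CPM, Irf8 at 86.4 CPM, Csf2rb at 29.6 CPM, Csf2ra at 24.5 CPM and Csf3r at 3.34 CPM. Of these 606 cells, 420 came from WT on day 10. Csf1 was at 59.0 CPM in cluster 15, against 9.39 CPM in the macrophage-like class.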

How the results depend on the processing

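No member passed in 65 of 70 alternative fits that kept all libraries and in 86 of 90 that left out 1. For the 19 of 70 member tests with an unadjusted p under 0.05, 304 alternative values were computed, of which none reversed and 13 became stronger; the other member tests were recomputed only as counts of calls. In macrophage-like cells, Per2-/- against WT gave 1 called member with DESeq2 (Csf3r, 1.29 on the log2 scale, adjusted p = 0.0248) and 2 without a filter (Csf3r 1.32 and Csf2rb 0.63), and day 7 against day 4 gave 1 with DESeq2 (Csf1r, 0.55). In fibroblast-like cells DESeq2 gave 1 in Per1-/- against Per2-/- (Csf1, 0.61) and 1 in day 7 against day 4 (Csf1r, 1.48). Leaving out 1 library gave 0 to 2 called members in macrophage-like Per2-/- against WT and day 7 against day 4, 0 to 1 in fibroblast-like Per1-/- against Per2-/-, and 0 to 0 elsewhere. Without WT on day 4, Csf1r (0.81, adjusted p = 0.0388) and Irf8 (0.67, adjusted p = 0.0463) passed in day 7 against day 4. Calls over all genes moved in such fits too. They ran from 0 to 692, 0 to 420 and 0 to 677 in these comparisons, in this order, against 0, 83 and 0 with all libraries. Of 36 class levels 1 moved: Csf1 in macrophage-like cells, with a mean of 9.56 ± 2.75 CPM (SD, n = 9), was at 14.6 CPM with doublets kept.

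The number of all genes called moved far more, and the causes were not tested. In macrophage-like cells, Per1-/- against WT called 1 gene, 224 with DESeq2, 231 with no filter, 58 with doublets kept, 0 without day as a factor and 0 at resolution 2. Per2-/- against WT called 0, 377 with DESeq2 and 366 with no filter. Per1-/- against Per2-/- called 7, 131 with DESeq2, 173 with no filter, 1 with doublets kept, 3 without day, 0 at resolution 2 and 1 with the Il7r and Adam8 cluster. Day 7 against day 4 called 83, 643 with DESeq2, 567 with no filter, 460 with doublets kept, 1 without genotype as a factor, 0 at resolution 2 and 0 with the added cluster. Day 10 against day 7 called 108 and 163 with no filter. In fibroblast-like cells, Per1-/- against WT called 0, 319 with DESeq2 and 11 with no filter, Per2-/- against WT called 0 and 84 with DESeq2, and Per1-/- against Per2-/- called 0, 372 with DESeq2 and 6 with no filter. Day 7 against day 4 called 593, 1488 with DESeq2, 328 without genotype and 368 without the limit on markers of other classes; day 10 against day 7 called 202, 428 with DESeq2 and 304 without the limit. Leaving out 1 library at a time, the counts ran, in macrophage-like cells, from 0 to 12, 0 to 692, 0 to 406, 0 to 420 and 69 to 116 for these 5 comparisons in this order, and in fibroblast-like cells from 0 to 386, 0 to 0, 0 to 677, 35 to 703 and 134 to 228.

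The fits added genotype and day as separate factors, so each genotype comparison asks for a difference shared by all days. No genotype was tested within a day. The values without day as a factor are given above. A further block on replicate numbers could not be fitted, since the labels give none. Il34 rests on few UMIs per library outside fibroblast-like cells, which limits what can be seen of it.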
